A study of Mus musculus with 384 samples.

Results

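The colony-stimulating factor receptors are the receptors through which G-CSF, M-CSF, GM-CSF and interleukin-3 act on myeloid cells. Their 5 mouse genes, Csf3r, Csf1r, Csf2ra, Csf2rb and Csf2rb2, were taken by name from the 23420 genes of the table and described in all 326 cells that have a column there. The cells came from spinal cords of mice with the genotype Optn KO, a loss of optineurin, a protein that delivers cargo to autophagosomes and restrains NF-kB. After Accutase digestion and removal of myelin, cells stained for CD45, CD11b and CX3CR1 were sorted singly into plates and sequenced by SmartSeq2, which copies whole transcripts and adds no molecular identifiers. All cells share that genotype and tissue, and the description label divides them into replicate 1 (154 cells, plates 1 and 2) and replicate 2 (172 cells, plates 3 and 4). With no control mice among the samples used here, the effect of the knockout was not measured, and Optn itself was at 0 in each of the 326 cells. The age, sex, strain and allele of the mice, are not given in the labels. They also do not say if a replicate is 1 animal or a pool, or if both replicates came from the same mice.

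G-CSF, M-CSF and GM-CSF were named for the colonies of granulocytes and macrophages that they support in culture. The G-CSF receptor (Csf3r) is a single chain that pairs with itself and signals through JAK kinases and STAT3 to drive the production, release and survival of neutrophils. The M-CSF receptor (Csf1r) is a receptor tyrosine kinase that also binds interleukin-34 and keeps monocytes, macrophages and microglia alive. GM-CSF binds an alpha chain (Csf2ra) that signals only together with the common beta chain (Csf2rb), which the interleukin-3 and interleukin-5 receptors use as well. Mice carry an additional beta chain (Csf2rb2) that serves interleukin-3 alone.

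The title names the sorted cells as microglia, but no cell of the 326 had 3 or more of 12 microglial markers above 0. P2ry12 was at 0 in all other cells, and Sall1, C1qc and Fcrls were at 0 in all 326 cells. The 12 markers together summed to between 0 and 1452 TPM in neutrophils and between 0 and 2100 TPM in other cells. Trem2 was above 0 in 8 of the 34 other cells poor in the neutrophil gene Mmp9. Of the 34, 9 had 2 of the 12 markers at 10 TPM or more. Neutrophils were defined as cells with S100a8 plus S100a9 of at least 10000 TPM. They made up 286 of the 326 cells, the lowest at 12512 TPM, while the highest of the 40 other cells was at 4019 TPM. TPM is transcript abundance corrected for transcript length and scaled to a total of 1000000 per cell. Neutrophils were ranked within each plate by the mean log2(TPM + 1) of 6 specific granule genes (Ltf, Camp, Ngp, Lcn2, Chil3, listed as Chi3l3, and Cd177), which are transcribed in immature neutrophils and fall silent as the cells mature. This gave 97 granule-low, 95 granule-middle and 94 granule-high cells.

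The 40 other cells are not of 1 kind, and this bears on every comparison made with them. Of these, 6 had 785 to 2734 TPM of the neutrophil protease gene Mmp9 and 44.6 to 3834 TPM of the neutrophil chemokine receptor gene Cxcr2, and 4 of them lay in replicate 1. They stood below the S100 threshold, and the monocyte genes Ly6c2, Ccr2, S100a4 and F13a1 were at 0 in all of them. Results on other cells are given with and without these 6 cells, a choice made after the data were seen. Of the 34 left, 27 had at least 3 of 7 monocyte markers above 0 and are called monocyte-like. The remaining 7 were 2 cells with the B cell gene Cd79a, 3 with the cytotoxic lymphocyte gene Nkg7, and 2 with Csf1r and Cx3cr1.

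The depth per cell is unknown, since TPM keeps no read totals, and the number of genes above 0 stands in for it. Its median was 1371 in granule-low, 1608 in granule-middle and 2095 in granule-high neutrophils and 3028 in other cells. Very low values were common: of the 979 receptor values above 0, 125 (12.8%) were under 10 TPM. The neutrophil gene Cxcr2 was above 0 in 29 of the 34 other cells poor in Mmp9, at no more than 15.0 TPM. Shares of cells are therefore given both above 0 and at 10 TPM or more.

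The beta chain genes are close copies, which limits how far their reads can be told apart. Csf2rb lies at chr15:78325752-78353847 on the plus strand and Csf2rb2 at chr15:78282507-78305721 on the minus strand, 20030 bases apart (GRCm38, mm10, GENCODE M21). Their coding sequences were 95.2% identical over 2628 aligned bases, and 26.2% of all 50-base stretches of the Csf2rb coding sequence also occurred in Csf2rb2 transcripts. The following 60 coding bases, within the stretch where they diverge most, are shown because reads from such places are what separates them. Capitals mark the 13 bases that differ.
Csf2rb, chr15:78338893-78338952, plus strand: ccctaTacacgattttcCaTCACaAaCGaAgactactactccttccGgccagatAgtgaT
Csf2rb2, chr15:78294379-78294438, minus strand: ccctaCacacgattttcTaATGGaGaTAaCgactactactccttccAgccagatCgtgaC
How RSEM, which assigns shared reads by estimated abundance, divided the reads between the pair cannot be read from the table, so the level of each, and above all of the rarer Csf2rb2, is uncertain.

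Csf3r had the highest mean of the 5 in granule-low and granule-middle neutrophils, and its level followed the granule genes in reverse. In granule-high neutrophils its means, 197 and 195 TPM, were close to those of Csf2ra, 216 and 184 TPM. In granule-low neutrophils the mean was 2475 TPM in replicate 1 and 3019 TPM in replicate 2. In granule-middle neutrophils it was 643 and 775 TPM. The replicate means of the 3 classes did not overlap, and each step down held in both replicates. With 2 means per class this is a description only. How many of all genes separate in this way was not counted, for Csf3r or for any receptor below. Single cells ran from 244 to 9911 TPM in the granule-low class and from 0 to 987 TPM in the granule-high class. The granule-low mean exceeded the granule-high mean 12.6-fold in replicate 1 and 15.5-fold in replicate 2. Csf3r was higher in granule-low neutrophils by 3.80 ± 0.26 (SE) on the log2(TPM + 1) scale, with a 95% interval from 3.19 to 4.40 and a limma adjusted p of 0.00017 over the 6184 genes tested.

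**Figure D1:**
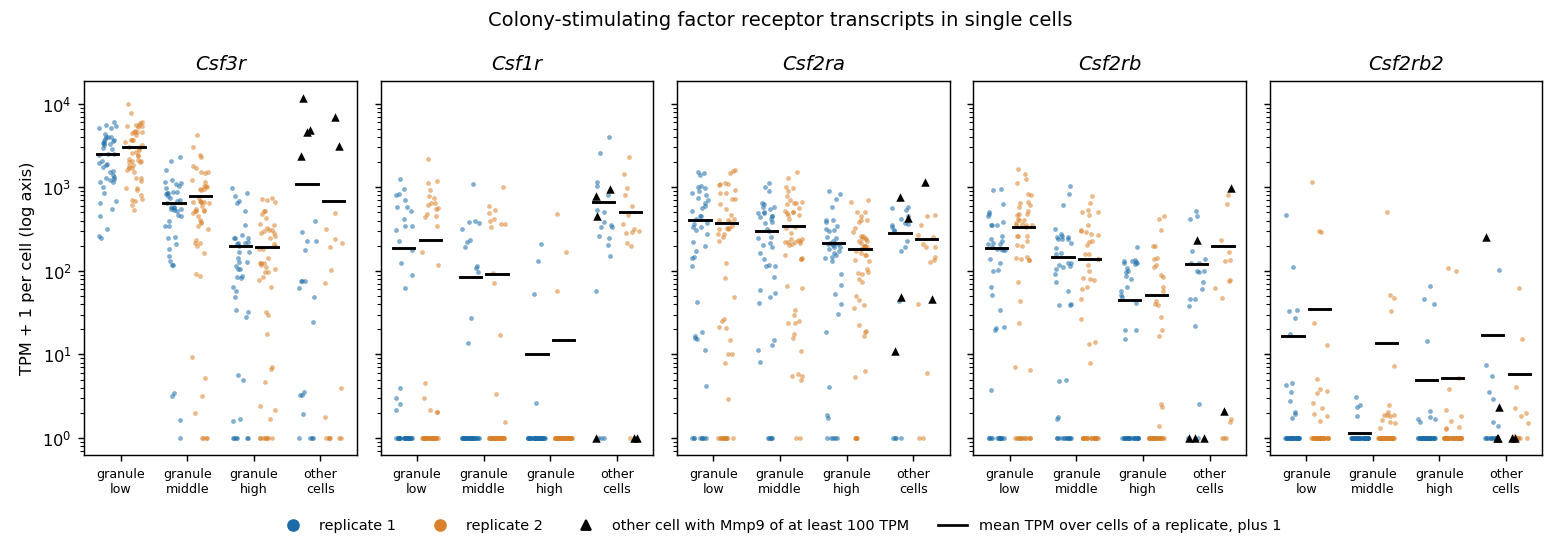
Receptor transcripts per cell (TPM + 1, log axis) in the 3 neutrophil classes and in other cells, with replicate 1 in blue and replicate 2 in orange, bars at the mean TPM of each replicate plus 1, and triangles for the 6 other cells rich in Mmp9. Csf3r steps down from 2475 and 3019 TPM in granule-low to 197 and 195 TPM in granule-high neutrophils, while Csf1r is at 0 in most granule-high cells.

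Csf3r was rarely missing. It was above 0 in all 97 granule-low cells, in 95.0% ± 3.8 (SD, n = 2 replicates) of granule-middle cells and in 85.2% ± 1.2 of granule-high cells. At 10 TPM or more these shares were 100%, 87.7% and 74.6%. The class in which Csf3r was most often missing had the most genes detected per cell. Within a plate, Spearman's rho between Csf3r and the granule score over neutrophils was between -0.84 and -0.78 on the 4 plates, a mean of -0.81 over 286 cells. Within the granule-low class alone the mean rho was -0.47, and within the granule-high class it was -0.12. The points of each such coefficient share a plate and a fixed TPM total, and the granule score itself had a mean rho of 0.75 with the number of genes detected.

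**Figure D2:**
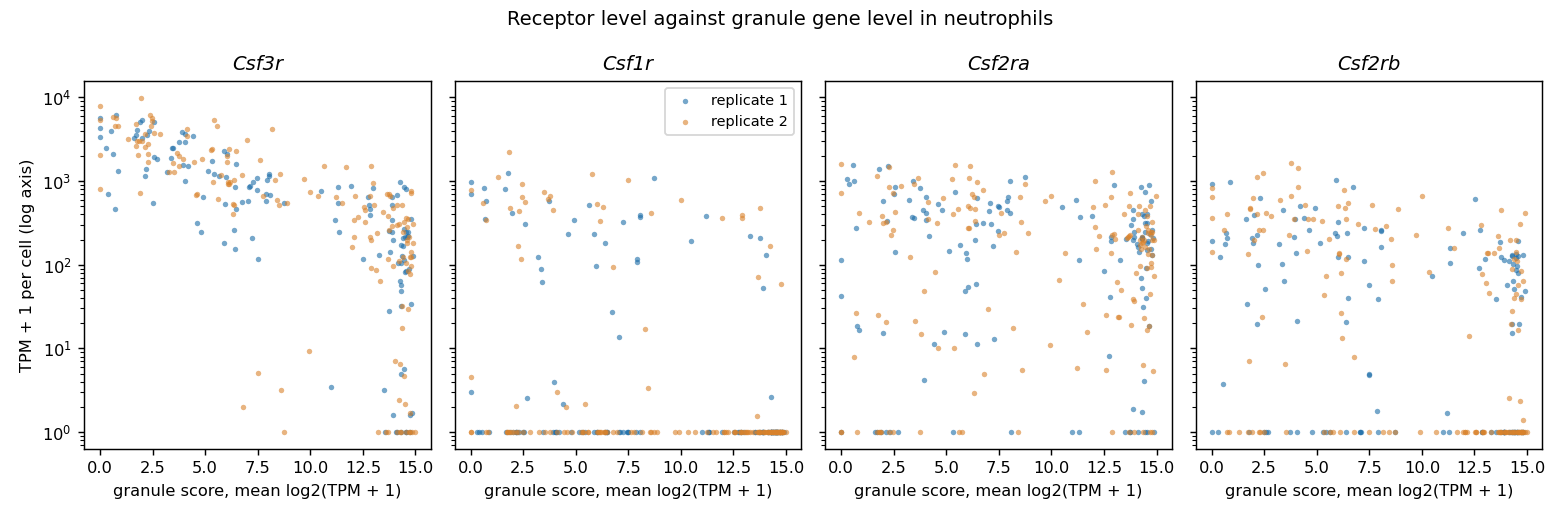
Level of 4 receptors in each of the 286 neutrophils (TPM + 1, log axis) against the granule score, the mean log2(TPM + 1) of the 6 granule genes, with replicate 1 in blue and replicate 2 in orange. Csf3r falls as the score rises over all neutrophils (mean rho -0.81) but little within the granule-high class (mean rho -0.12), Csf1r thins out towards high scores, and Csf2ra varies little with it (mean rho -0.10).

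Csf1r, the M-CSF receptor of monocytes and macrophages, was carried by a minority of neutrophils, most of them poor in granule transcripts. Its mean was 185 and 230 TPM in granule-low, 82.7 and 90.1 TPM in granule-middle and 9.09 and 13.8 TPM in granule-high neutrophils of replicates 1 and 2. The replicate means of the classes did not overlap, whereas each class held cells at 0. The share of cells above 0 fell with them, from 44.5% ± 3.1 (SD, n = 2) through 28.6% ± 2.3 to 7.59% ± 2.4. Where Csf1r was present at all in a granule-low cell, its median was 441 TPM, and the highest cell had 2196 TPM. The difference in level therefore came with a difference in the number of positive cells: 43 of 97 granule-low cells against 7 of 94 granule-high cells. Csf1r was higher in granule-low neutrophils by 4.08 ± 0.40 (SE; 95% interval 3.16 to 5.01) on the log2 scale, with a limma adjusted p of 0.00085. No neutrophil had 3 or more of the 5 border macrophage markers above 0. Of 7 monocyte markers, 3 or more were above 0 in 7 of the 77 neutrophils with Csf1r and in 23 of the 209 without it. The summed level of the 7 ranged from 0 to 17315 TPM with a median of 730 TPM in neutrophils with Csf1r, and from 0 to 41692 TPM with a median of 4896 TPM in those without. Without the granule gene Chil3, 3 or more of the other 6 markers were above 0 in 3 of the 77 and in 0 of the 209. The summed level of these 6 had a median of 618 TPM in neutrophils with Csf1r and 2143 TPM in those without. The direction of the count thus depended on Chil3. Over all neutrophils Ly6c2 was above 0 in 230 cells and Chil3, also a granule gene here, in 153, whereas Ccr2 was above 0 in 16, F13a1 in 2 and S100a4 in none.

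Csf2ra, the ligand-binding chain for GM-CSF, was nearly as widespread as Csf3r and varied least. Its mean was 405 and 373 TPM in granule-low, 296 and 342 TPM in granule-middle and 216 and 184 TPM in granule-high neutrophils. The replicate means of the 3 classes did not overlap, and the granule-low mean was 1.88 and 2.03 times the granule-high mean. Shares of positive cells ran the other way, with 79.6% ± 3.7 in granule-low against 92.3% ± 5.5 in granule-middle and 89.3% ± 1.3 in granule-high cells. Csf2ra did not pass the test, at a log2 difference of 0.96 ± 0.27 (SE; 95% interval 0.34 to 1.58) and a limma adjusted p of 0.061. When log values were averaged over cells in place of TPM, the difference was -0.072, so its direction depended on the kind of average.

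Csf2rb, the common beta chain, was lower in granule-high neutrophils. Its mean was 185 and 330 TPM in granule-low, 147 and 138 TPM in granule-middle and 43.2 and 50.1 TPM in granule-high neutrophils. The replicates of the granule-low class lay far apart, but both were above all granule-middle and granule-high values. Positive cells made up 73.1% ± 2.7 of granule-low, 65.9% ± 8.8 of granule-middle and 46.0% ± 4.0 of granule-high cells. The log2 difference was 2.39 ± 0.39 (SE; 95% interval 1.49 to 3.28), with a limma adjusted p of 0.0088. Without plate 4 it was 2.26 with a limma adjusted p of 0.0502, and with no filter on low values the adjusted p was 0.0587, so the call rested on both.

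Csf2rb2, the interleukin-3-specific beta chain, was near the limit of detection. Its mean was 15.5 and 34.2 TPM in granule-low, 0.134 and 12.5 TPM in granule-middle and 3.89 and 4.25 TPM in granule-high neutrophils. The granule-low class was above the rest in both replicates, and the granule-middle values spread across those of the granule-high class. At 10 TPM or more it was found in 7.37% ± 0.38 (SD, n = 2) of all neutrophils. The mean rested on few cells, because the 9 cells with at least 100 TPM held 82.4% of all Csf2rb2 TPM in the table, and 1 granule-low cell had 1140 TPM. Csf2rb reached 42.2 TPM or more in 7 of these 9 cells and was at 0 in the other 2. The log2 difference of 2.25 ± 1.28 (SE; 95% interval -0.72 to 5.22) did not pass the test, with a limma adjusted p of 0.32.

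Between granule classes, 3 of the 5 receptors were therefore called, Csf3r, Csf1r and Csf2rb, all higher in granule-low neutrophils. Over all 6184 genes tested, 429 (6.94%) were called higher in granule-low and 239 (3.86%) higher in granule-high neutrophils, with a median log2 difference of 0.09. S100a8, S100a9, the 6 granule genes and the ribosomal Rn45s together took 14.1% of TPM in granule-low and 40.9% in granule-high cells, which lowers all other values in the latter. With TPM rescaled without these genes, the median of all genes moved to -0.41 and the calls to 272 higher in granule-low and 435 higher in granule-high. Relative to that median, Csf3r stood 3.68 higher after rescaling and 3.70 before, Csf1r 4.08 and 3.99, and Csf2rb 2.26 and 2.29. The same 3 receptors were called after rescaling, with limma adjusted p of 0.00053, 0.0021 and 0.028.

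**Figure D3:**
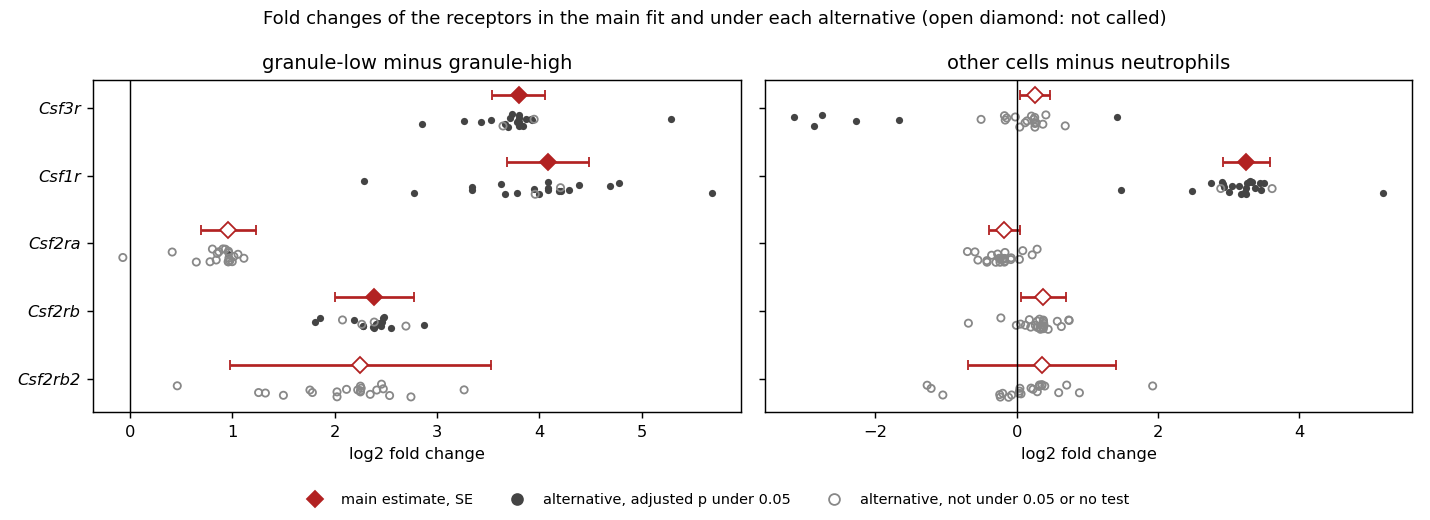
Log2 fold changes of the receptors between granule-low and granule-high neutrophils and between other cells and neutrophils, as diamonds with their SE, filled where the limma adjusted p was under 0.05, and under each alternative setting as dots, filled likewise. Between granule classes Csf3r, Csf1r and Csf2rb lie to the right of 0 in each setting, whereas against other cells Csf3r changes sign with the cells included and with settings that keep all 40 cells, such as averages of log values (-3.15).

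Cycling neutrophils, defined as having at least 5 of 16 proliferation genes above 0, numbered 24, of which 18 were granule-high, 3 granule-middle and 3 granule-low. The early precursor genes Elane, Mpo, Prtn3 and Ctsg were above 0 in 1 granule-low cell. That cell alone gave the granule-low class of replicate 1 a mean of 2945 TPM for their sum. A low granule score thus does not show by itself that a cell is mature. Csf3r had a median of 125 TPM in the 13 cycling cells of replicate 1 and 95.0 TPM in the 11 of replicate 2. The mean of replicate 1, 425 TPM, rested on 1 cell at 3315 TPM and was 184 TPM without it, against a mean of 210 TPM in replicate 2. Csf1r was above 0 in 1 cycling cell of each replicate. Csf2ra was at 165 and 64.5 TPM and Csf2rb at 76.3 and 39.6 TPM. With these cells left out, the mean in the granule-high class was 211 ± 15.2 TPM (SD, n = 2) for Csf3r, 14.2 ± 3.8 TPM for Csf1r and 45.9 ± 11.1 TPM for Csf2rb, all below the granule-middle means.

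The 40 other cells differed from neutrophils in Csf1r. It was higher in other cells, at 660 and 501 TPM in replicates 1 and 2 against 93.8 and 112 TPM in all neutrophils. Without the 6 cells rich in Mmp9 it was at 684 and 568 TPM. These replicate means did not overlap with those of neutrophils. Csf1r was higher by 3.25 ± 0.33 (SE) on the log2 scale against the mean of the 3 neutrophil classes, with a limma adjusted p of 0.00051, and by 3.37 ± 0.31 with an adjusted p of 0.00028 without the 6 cells. It was the only one of the 5 called with all 40 cells, where 1187 of 6184 genes (19.2%) were called higher in other cells and 420 (6.79%) higher in neutrophils. The median log2 difference of all genes was 0.69 with all 40 cells, and Csf1r stood 2.56 above it. Each of the 27 monocyte-like cells had at least 56.8 TPM of Csf1r, with a median of 352 TPM.

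For Csf3r the direction depended on those 6 cells and on the settings. They carried 2390 to 11692 TPM each, and 5 of the 6 lay within the range of granule-low neutrophils while 1 lay above it. With them the other cells averaged 1095 and 683 TPM and did not differ detectably from neutrophils, at 0.26 ± 0.21 (SE; 95% interval -0.24 to 0.75) on the log2 scale and a limma adjusted p of 0.40. Without them the mean was 88.3 and 109 TPM, and Csf3r was lower than in neutrophils by a log2 difference of -2.87 ± 0.17 (SE), with a limma adjusted p of 5.0e-05. In that comparison 1388 of 6303 genes (22%) were called higher in other cells and 593 (9.41%) higher in neutrophils. Of these 34 cells, 18 had 10 TPM or more of Csf3r and 495 TPM was the highest value, so it was low but present in many. All 18 also had 10 TPM or more of Csf1r and of Csf2ra. With all 40 cells kept, the difference was -3.15 when log values were averaged over cells, -1.66 against granule-low neutrophils alone, -0.50 with only the compared classes in the fit, -0.16 with fixed granule borders and -0.14 after rescaling.

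The GM-CSF receptor chains were at similar TPM levels in other cells and neutrophils, with wide intervals. The median log2 difference of all genes was 0.69 with all 40 cells. Relative to it Csf2ra stood at -0.87 and Csf2rb at -0.32. Csf2ra averaged 280 and 237 TPM in other cells against 307 and 300 TPM in neutrophils, a log2 difference of -0.17 (95% interval -0.68 to 0.33; limma adjusted p 0.57). Without the Mmp9-rich cells the difference was -0.36 (95% interval -0.88 to 0.17; limma adjusted p 0.26). Csf2rb averaged 120 and 197 TPM against 126 and 174 TPM, with a log2 difference of 0.38 (95% interval -0.36 to 1.11; limma adjusted p 0.40). For Csf2rb2, at 16.1 and 4.86 TPM in other cells, the interval of the log2 difference from -2.07 to 2.78 left its size undetermined (limma adjusted p 0.82). The signs of Csf2ra, Csf2rb and Csf2rb2 changed under some settings.

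The order of the levels summed up these differences. It is an order of replicate means, 2 per class. How many of all genes keep such an order without overlap is not given here. Taking the 34 cells poor in Mmp9 as other cells, Csf1r ran from other cells down through granule-low, granule-middle and granule-high neutrophils, with no overlap between the means of neighbours. Csf3r ran from granule-low through granule-middle and granule-high neutrophils to other cells, again without overlap of the means. Single cells of neighbouring classes overlapped for both genes. For Csf2ra, granule-low and granule-middle neutrophils came first, and other cells (231 ± 59.9 TPM) and granule-high neutrophils (200 ± 22.4 TPM; SD, n = 2) overlapped. For Csf2rb, other cells (145 ± 17.9 TPM) and granule-middle neutrophils (142 ± 6.5 TPM) overlapped between a higher granule-low and a lower granule-high class. For Csf2rb2, granule-low neutrophils came first. The granule-middle means (0.134 and 12.5 TPM) spanned those of other cells (6.14 and 5.51 TPM) and of granule-high neutrophils (3.89 and 4.25 TPM), which did not overlap with each other.

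**Figure D4:**
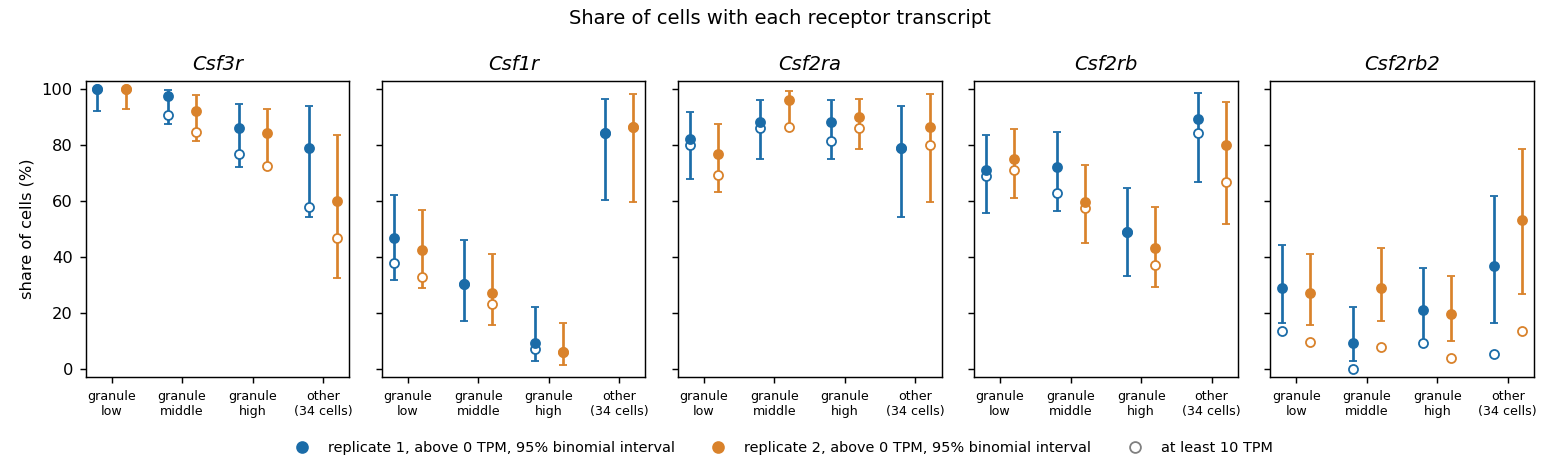
Share of cells (%) with each receptor above 0 TPM (filled, with the 95% exact binomial interval) and at 10 TPM or more (open) in the 3 neutrophil classes and the 34 other cells poor in Mmp9, with replicate 1 in blue and replicate 2 in orange. The share with Csf1r above 0 is 46.7% and 42.3% in granule-low and 9.30% and 5.88% in granule-high neutrophils, and 84.2% and 86.7% in other cells.

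The 7 other cells outside these groups differed from each other. Both cells with Cd79a lacked Csf1r and Csf2ra and had 122 and 45.7 TPM of Csf2rb. Of the 3 cells with Nkg7, 1 had 521 TPM of Csf2rb and the rest had none, while Csf1r and Csf2ra were at 0 in all 3. In these 5 cells Csf3r was between 0 and 2.98 TPM. Of these 7, the 2 cells with Cx3cr1 carried Csf3r at 397 and 23.6 TPM. They had 4032 and 2593 TPM of Csf1r, the most of all cells, against at most 2277 TPM in monocyte-like cells. Cx3cr1 was also above 0 in 17 of the 27 monocyte-like cells.

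Most neutrophils carried several receptors at once. At 10 TPM or more, 3 of the 5 was the most frequent number, found in 108 of 286 neutrophils (37.8%), and 7 neutrophils had none. In granule-low neutrophils 26.7% of replicate 1 and 23.1% of replicate 2 had 4 receptors, against 4.65% and 7.84% in granule-high neutrophils. Of the 34 other cells 52.6% and 53.3% had 4. By presence above 0, the combination of Csf3r, Csf2ra and Csf2rb was the most frequent in neutrophils, in 81 cells, followed by Csf3r with Csf2ra alone in 54. Across neutrophil classes the number of genes detected moved in the opposite direction, while the other cells had both the most genes detected and the most cells with 4 receptors.

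**Figure D5:**
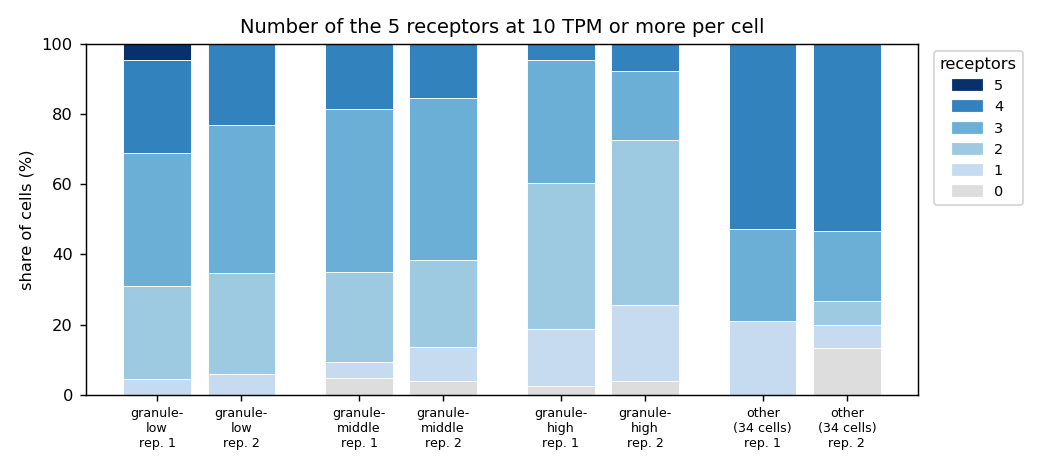
Share of cells (%) by how many of the 5 receptors were at 10 TPM or more, for the 3 neutrophil classes and the 34 other cells poor in Mmp9, with 1 bar per replicate. In granule-high neutrophils 4.65% and 7.84% of cells have 4 receptors, and in other cells 52.6% and 53.3%.

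Both GM-CSF receptor chains were found together in about as many granule-low as granule-middle cells. Csf2ra and Csf2rb were both above 0 in 57.8% of granule-low cells of replicate 1 and 59.6% of replicate 2, in 67.4% and 59.6% of granule-middle cells and in 39.5% and 39.2% of granule-high cells. The fewer double-positive granule-high cells came with less frequent detection of the beta chain, since 47 of 94 granule-high cells had the alpha chain without it and 6 the reverse. In neutrophils as a whole the presence of one chain said little about the other: Csf2rb was found in 61.8% of cells with Csf2ra and in 59.5% of cells without it. In the 34 other cells 26 had both chains.

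Csf3r was found in most neutrophils, both with and without Csf1r. Of the 77 neutrophils with Csf1r above 0, 75 (97.4%) also had Csf3r, against 91.9% of those without Csf1r. In the granule-low class every cell had Csf3r. Csf2rb was present in 70.1% of Csf1r-positive and 58.4% of Csf1r-negative neutrophils. Within the granule-low class these shares were 76.7% and 70.4%. The mean within-plate rho between Csf3r and Csf1r was 0.31 over all neutrophils but 0.16 within the granule-low and -0.01 within the granule-high class. All 3 values are descriptions of cells that share plates.

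Other genes followed the receptors to different degrees. Among 2254 genes found in at least 25% of the 286 neutrophils, those most like Csf3r by mean within-plate rho were the immediate-early phosphatase gene Dusp1 (0.77), the AP-1 gene Junb (0.75) and the ferritin light chain gene Ftl1 (0.72). Csf1r was most like the cytokine gene Il1b (0.43), the chemokine gene Ccl6 (0.38) and Sfxn5 (0.37). Csf2rb was most like Junb (0.42), the proteoglycan gene Srgn (0.41) and the ferritin heavy chain gene Fth1 (0.40). For Csf2ra no gene exceeded 0.26, the value of the actin-bundling gene Lcp1 and of Rnf144a, followed by R3hdm4 (0.25). Csf2rb2 was in too few neutrophils (22.7%) to be ranked.

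The ligands were almost absent from the sorted cells. Csf2, Csf3, Il34, Il3 and Il5, which encode GM-CSF, G-CSF, interleukin-34, interleukin-3 and interleukin-5, were at 0 in all 326 cells, which limits the share of neutrophils with a detected transcript to 1.28% by the exact binomial interval. It sets no limit on the share that express them, since a transcript can be missed. Csf1, the gene for M-CSF, was above 0 in 12 of 97 granule-low, 2 of 95 granule-middle and 0 of 94 granule-high neutrophils. Its mean was 47.6 and 34.4 TPM in granule-low neutrophils and it was listed at 0 in granule-high neutrophils of both replicates, so no fold is given. No test is given either, because Csf1 passed the filter on low values through the granule-low class. Among other cells 5 of 40 had Csf1, and 2 of these 5 were rich in Mmp9. The partner chains for interleukin-3 and interleukin-5 were sparse too, with Il3ra above 0 in 8 and Il5ra in 72 of 286 neutrophils, the latter at a mean of 1.18 TPM.

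Of the genes that act with or after the receptors, those called between granule classes were higher in granule-low neutrophils, and several did not hold after rescaling. Among 14 kinase, STAT and adaptor genes tested, 5 were called higher in granule-low neutrophils and none lower, at a list median of 1.66 against 0.09 for all genes, of which 6.94% were called higher and 3.86% lower. They were Tyrobp, which couples myeloid receptors to Syk, at a log2 difference of 1.68 (6254 and 6640 TPM in granule-low, 2096 and 1939 TPM in granule-high cells; limma adjusted p 0.00017), the Src family kinases Fgr (1.70, limma adjusted p 0.0037) and Lyn (1.55, limma adjusted p 0.013), Stat6 (1.86, limma adjusted p 0.034) and Jak1 (1.68, limma adjusted p 0.047). Stat6 and Jak1 are named because the call included them, chosen after their values were seen. After rescaling only Tyrobp, Fgr and Lyn were called, the last with a limma adjusted p of 0.0498.

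Among feedback, survival, adaptor and related receptor genes, 5 were called, all higher in granule-low neutrophils, where 6.94% of all genes tested were called. Socs3, the feedback inhibitor of the G-CSF receptor, averaged 174 and 278 TPM in granule-low and 4.74 and 3.50 TPM in granule-high neutrophils, a log2 difference of 5.44 (limma adjusted p 0.037, after rescaling 0.05004). It was 1 of 7 feedback genes called. The survival gene Mcl1 (2.84, limma adjusted p 0.0022, after rescaling 0.0084) and the STAT target Pim1 (4.03, limma adjusted p 0.035, after rescaling 0.053) were 2 of 6 targets called. Pik3cd, a catalytic PI3-kinase subunit, was 1 of 7 adaptor and PI3-kinase genes called (1.89, limma adjusted p 0.029, after rescaling 0.078), and Ifngr2, a chain of the interferon-gamma receptor, was 1 of 6 related receptors (1.72, limma adjusted p 0.028, after rescaling 0.078). None of 4 lineage transcription factors was called. After rescaling the cyclin gene Ccnd3 and the granulopoiesis factor gene Cebpe were called higher in granule-high neutrophils, where Cebpe was at 101 and 82.2 TPM against 11.3 and 8.36 TPM.

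Against other cells, the calls in these lists stand beside 19.2% of all genes called higher in other cells and 6.79% called higher in neutrophils. The monocyte factor gene Irf8 averaged 141 and 321 TPM in other cells and at most 3.26 TPM in any neutrophil class of a replicate. Klf4, also a monocyte factor gene, averaged 31.3 and 53.4 TPM against at most 0.530 TPM. No test is given for Irf8 and Klf4, because they passed the filter on low values through the other cells. Cebpe was called lower in other cells, at a log2 difference of -3.89 (limma adjusted p 0.0070). Among related receptors Ifngr1 (2.30, limma adjusted p 0.0025) and Il2rg (4.48, limma adjusted p 0.025) were called higher, 2 of 6. Of the kinases Tyk2 was called higher (3.12, limma adjusted p 0.033) and Fgr lower (-0.81, limma adjusted p 0.019), 1 of 14 in each direction. The calls of Cebpe, Ifngr1, Il2rg, Tyk2 and Fgr were also made without the 6 Mmp9-rich cells. After rescaling all but that of Tyk2 were made, whose limma adjusted p became 0.059.

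Promoter sequence was available for part of the group and is shown for Csf3r, which was called between granule classes, and Csf2ra, whose difference did not pass the test. Each window holds the 250 bases before the start of the gene (RefSeq, GRCm38.p6), read in the direction of the gene. Capitals mark GAGGAA, a core recognised by PU.1, a myeloid transcription factor known to act at the human promoters of G-CSF, M-CSF and GM-CSF receptor genes.
Csf3r, chr4:126024409-126024658, plus strand: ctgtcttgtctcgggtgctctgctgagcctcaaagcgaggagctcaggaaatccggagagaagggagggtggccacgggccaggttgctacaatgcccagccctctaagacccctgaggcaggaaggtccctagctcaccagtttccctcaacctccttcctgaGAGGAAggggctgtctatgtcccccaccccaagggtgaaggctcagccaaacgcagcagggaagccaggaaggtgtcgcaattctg
Csf2ra, chr19:61228419-61228668, minus strand: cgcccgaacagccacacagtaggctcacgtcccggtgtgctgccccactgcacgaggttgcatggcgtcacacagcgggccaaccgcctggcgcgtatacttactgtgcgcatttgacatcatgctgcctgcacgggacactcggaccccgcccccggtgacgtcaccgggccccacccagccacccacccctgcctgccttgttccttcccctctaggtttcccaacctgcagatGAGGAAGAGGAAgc
Csf3r had this motif once, beginning 86 bases before the RefSeq start, and Csf2ra had it as 2 adjoining copies beginning 14 and 8 bases before the RefSeq start. GENCODE M21 places the start of Csf3r at chr4:126024550 and that of Csf2ra at chr19:61228429, both inside these windows. By that annotation the Csf3r match and the Csf2ra copy nearer the RefSeq start lie within the genes. The window of Csf2rb2 had it once on the opposite strand, 167 bases before the start. On either strand GAGGAA occurs in 23.2% of the 32851 promoter windows of the same length, so a single match is common. TTGCNNAA, a core of C/EBP sites, and TGTGGT, a core of RUNX sites, occur in 9.56% and 14.0% of all windows and were not found in the 3 windows on either strand, so no match overlapped another kind of motif.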

How the data were processed

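Each labelled sample is 1 sorted cell. The labels list 384 cells on 4 plates of 96 wells, of which 326 have a column, and the other 58 were not analysed here. The authors deposited TPM values for 23420 genes per cell. RSEM and mm10 are named per the submitters' processing notes; no aligner, annotation or version is given in the sources used here. All columns matched a sample (0 did not), no cell was filtered out, and no doublet caller was run.

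TPM was averaged over the cells of each of 4 classes (granule-low, granule-middle and granule-high neutrophils, other cells) in each of the 2 replicates. The 8 averages entered 1 limma fit on log2(mean TPM + 1) with trend and robust variance and the replicate as a block, leaving 3 residual degrees of freedom. Genes needed a mean of 5 TPM and a value above 0 in 5% of cells; all 5 receptors passed. The 6 granule genes, S100a8 and S100a9 stayed out. p-values were adjusted by Benjamini-Hochberg over all genes tested, and called means an adjusted p under 0.05. With the replicate as a block, they measure only how far differences between classes varied between these 2 replicates, with the variance moderated over all genes. That variation may be technical, and a fold on this scale understates the change of low genes. The fit was run on simulated averages with independent normal noise of its own estimated variance, which checks the code only. Missed transcripts, single outlying cells and the fixed TPM total were not simulated. Shares have exact 95% Clopper-Pearson intervals, which cover counting error only.

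Named genes were the 5 receptors, up to 3 genes per pathway list and contrast by smallest adjusted p, all ligands, and the 3 genes most alike each receptor found in at least 25% of neutrophils. Members and lists were chosen with earlier results of these data known. Alternatives changed the pseudocount, the filter, the average, the class borders, the S100 threshold, the scaling, the block, the groups in the fit, and the cells or plates included. Python 3.11.15, pandas 2.3.3, numpy 2.4.6, scipy 1.17.1, R 4.3.3 and limma 3.58.1 were used.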

Additional observations from a re-analysis of the deposited data

How the results depend on the processing

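Between granule classes Csf3r and Csf1r were called in all 19 alternatives with a test, with adjusted p up to 0.020 and 0.029, and Csf2rb in 17, the exceptions being no filter (adjusted p 0.059) and the set without plate 4 (0.050). Csf2ra was called only without the replicate block (0.96, adjusted p 0.046), and its sign turned with averages of log values (-0.072). Csf2rb2 was never called. The number of genes called, 668 as reported, was 180 with no filter, 1408 with averages of log values, 290 with 2 granule classes, 329 with fixed borders and 261 to 399 with a plate left out. Without the replicate block it was 708 (454 higher in granule-low and 254 in granule-high neutrophils), and 1619 (1188 higher and 431 lower) against other cells.

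Against other cells 1607 genes were called, 3530 with averages of log values and 874 to 1064 with a plate left out, and after rescaling 742 were higher and 564 lower, with a median of all genes of 0.33 in place of 0.69. Csf1r was called in all 22 alternatives with a test. The sign of Csf3r turned with averages of log values (-3.15), fixed borders (-0.16), an S100 threshold of 1000 TPM (-2.28), rescaling (-0.14), the compared classes alone (-0.50), no plate 2 (-0.02, the range with a plate or replicate left out being -0.17 to 0.69), granule-low neutrophils as reference (-1.66), no Mmp9-rich cells (-2.87) and monocyte-like cells alone (-2.76), and at a threshold of 50000 TPM it was called higher (1.42). The sign of Csf2ra turned with averages of log values (0.038), a threshold of 50000 TPM (0.29), no plate 2 (0.085) and no plate 4 (0.22), with -0.70 to 0.22 over the sets leaving out a plate or replicate. That of Csf2rb turned with rescaling (-0.0054), no plate 4 (-0.22, in a range of -0.22 to 0.74) and granule-low neutrophils as reference (-0.68). That of Csf2rb2 turned with 2 granule classes (-0.072), a threshold of 1000 TPM (-0.24), averages per plate (-0.12), the compared classes alone (-0.23), no plate 2 (-1.05, in a range of -1.21 to 1.92), granule-low neutrophils as reference (-1.27) and no Mmp9-rich cells (-0.20). The cause was not tested. The settings on Mmp9-rich and monocyte-like cells were chosen after seeing the data.

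The share of neutrophils with a receptor was 93.5% for Csf3r, 27.1% for Csf1r, 87.0% for Csf2ra, 61.7% for Csf2rb and 22.5% for Csf2rb2. At 10 TPM or more it was 87.6%, 22.9%, 81.5%, 57.9% and 7.37%. Csf2rb2 at 1 TPM or more was at 14.7%, and Csf2ra at a threshold of 50000 TPM at 88.2%. Leaving out a replicate left no residual degrees of freedom and gave values with no test. With 2 replicates and no read totals, absence in a cell cannot be told apart from a missed transcript.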
